A study of Bos taurus with 8 samples.

Results

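The high-numbered miRNAs are the entries of the deposited table whose name is bta-miR- followed by an integer of 6000 or more. They were chosen by name alone, and 180 of the 1028 listed miRNAs met the rule. The libraries were made from extracellular vesicles (EVs) of follicular fluid (FF), the fluid that bathes the oocyte, of open and cycling Bos taurus crossbred beef cows. The summer group (SUM, 4 libraries) and the winter group (WIN, 4 libraries) came from the same herd of 11 cows kept in outdoor pens on grass and hay, and each library was a pool of fluid from a pair of cows. All cows of both groups had received a progesterone device, a GnRH analog and FSH before follicle aspiration, so that the vesicles come from stimulated ovaries in both seasons. The ages of the cows and the identity of the pools across seasons are not given in the sources used here. Levels are CPM, the reads of a miRNA relative to the size of its library, adjusted by the trimmed mean of M-values, and each was a whole multiple of what 1 read was worth in its library. The libraries held 214004 to 1689467 recovered miRNA reads, so that 1 read was worth 0.567 to 4.02 CPM.

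A miRNA is a short RNA cut from a hairpin precursor, and it guides Argonaute proteins to messenger RNAs that match its seed, which are then repressed. miRBase numbers miRNAs in the order in which they are registered, and a miRNA that is recognised as the relative of a known one takes the old number. High numbers therefore collect late entries, most of which came from deep sequencing and are of low abundance or of restricted occurrence. Little is known of the function of most of them, so the members are ordered here by their level. Many such hairpins lie within other genes and can be cut from the transcript of the host gene. No mature sequence of a member was among the files used, so seeds are not given.

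Of the 180 high-numbered miRNAs, 74 had at least 1 read in any library and 106 were at 0 in every library. Of those 74, 16 were found in all 8 libraries, 46 in 2 to 7 libraries and 12 in 1 library, and 4 rested on a single read in all. The detected share of 41.1% lay between the 52.7% of the ruminant miR-2284 and miR-2285 family (78 of 148) and the 29.5% of the entries miR-2286 to miR-3999 (84 of 285). Of let-7 and the entries below miR-2284, which hold most of the conserved miRNAs, 75.6% were detected (309 of 409), and none of the 6 entries from miR-4000 to miR-5999. Together the high-numbered miRNAs held 10886 of 5736016 miRNA reads, or 0.190%. The median of the mean CPM of the detected members was 1.72, which was close to the 1.85 of miR-2284 and miR-2285 and the 1.35 of the entries miR-2286 to miR-3999. It was 50.4 CPM for let-7 and the entries below miR-2284. Whether the number classes differ was not tested, because entries are not replicates.

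**Figure D1:**
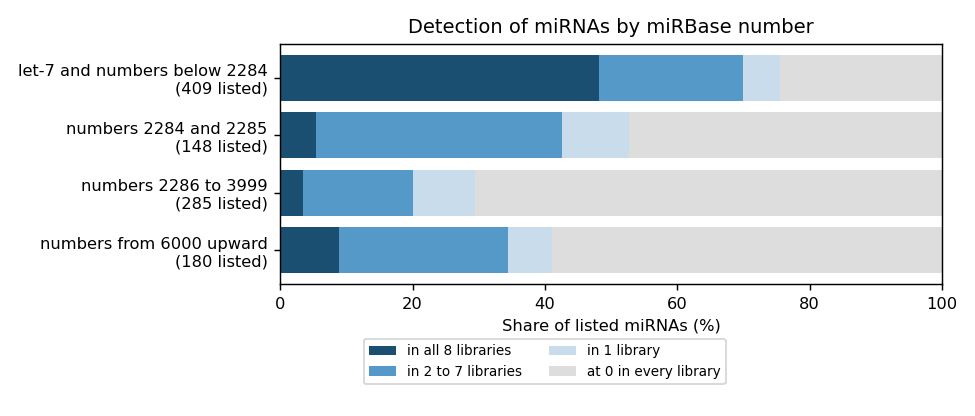
Share of the listed miRNAs (%, horizontal axis) that were found in all 8 libraries, in 2 to 7, in 1 or in none, for 4 classes of miRBase numbers (vertical axis). Of the numbers from 6000 upward, 106 of 180 were at 0 in every library and 16 were in all 8.

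Within the high-numbered miRNAs, the older blocks of numbers were detected more often than the newest. Of the entries miR-6000 to miR-6999, 22 of 35 were found (62.9%), and of the entries miR-7000 to miR-7999, 7 of 12 (58.3%). Of the entries miR-8000 to miR-9999, 2 of 4 had reads, and neither reached a mean of 2 CPM. Of the entries miR-10000 to miR-10999, 12 of 32 were found (37.5%), and of the entries from miR-11000 upward, 31 of 97 (32.0%). The oldest block, from miR-6000, held 7305 of the 10886 reads, but 6066 of those 7305 were reads of bta-miR-6529a alone. The entries miR-10000 to miR-10999 held 1636 reads and those from miR-11000 upward 1524. These shares are a description of the entries, and no test was made between blocks.

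Detection followed the depth of the library. In order of increasing depth, 30 members were found in SUM replicate 3, 25 in WIN replicate 1, 34 in SUM replicate 1, 41 in WIN replicate 4, 39 in WIN replicate 2, 50 in SUM replicate 2, 52 in SUM replicate 4 and 60 in WIN replicate 3. The 2 shallowest libraries thus had the fewest members and the deepest had the most. The SUM libraries averaged 41.5 ± 11.1 members and the WIN libraries 41.2 ± 14.4 (SD, n = 4 each), and the seasons overlapped. At the depth of the shallowest library, 214004 reads, the expected number was 27.8 to 34.2 in SUM and 24.4 to 37.8 in WIN. The range over libraries was therefore narrower at equal depth, although WIN replicate 3 remained the highest and WIN replicate 1 the lowest. Of the 12 members found in 1 library, 4 were found in WIN replicate 3, 3 each in SUM replicates 2 and 4, and 1 each in WIN replicates 1 and 4, with no more than 6 reads. A count of 0 allows a level of up to 1.70 CPM in the deepest library and up to 12.1 CPM in the shallowest (3 reads, counting error only), so for most members absence from a shallow library cannot be told from a low level. Members found in 1 season only were 7 in SUM, with at most 3 reads, and 8 in WIN, with at most 6 reads. The same count over all detected miRNAs is not given here, so these numbers have no background beside them.

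**Figure D2:**
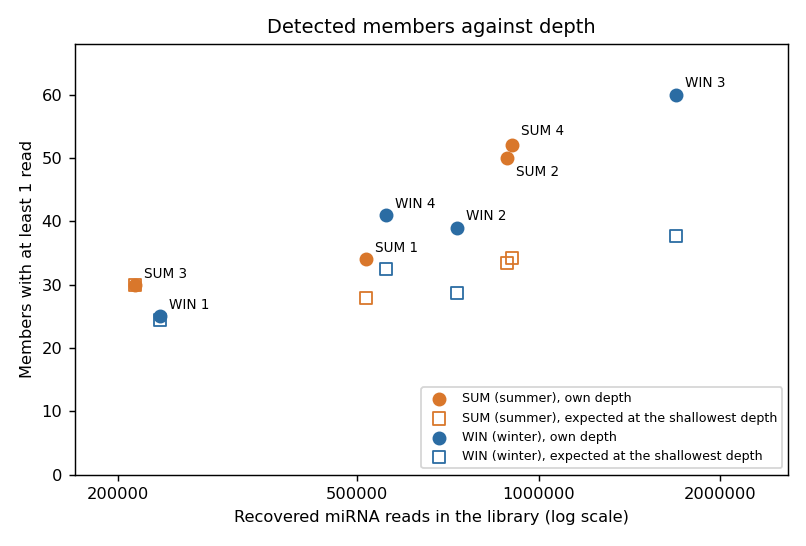
Number of high-numbered miRNAs with at least 1 read (vertical axis) against the recovered miRNA reads of the library (horizontal axis, log scale). Filled circles show each library at its own depth, from 25 to 60 members, and open squares the number expected at 214004 reads, from 24.4 to 37.8.

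One member dominated the group. bta-miR-6529a held 54.5% of the summed mean CPM of the high-numbered miRNAs, and the 5 most abundant members together held 79.8%. It stood 6.45-fold above the next member, bta-miR-11987, and was in rank 56 among all listed miRNAs. In SUM it had 709, 1199.65, 632 and 844 CPM, and in WIN 1053, 1358, 1148 and 1137 CPM (replicates 1 to 4). All WIN libraries lay above 3 of the 4 SUM libraries, and only SUM replicate 2 reached into the WIN range. The SUM mean of 846 ± 252 CPM and the WIN mean of 1174 ± 130 CPM (SD, n = 4 each) gave a log2 fold change of -0.51, with 0.26 as its standard error and an adjusted p of 0.29 by limma, and the exact permutation test gave p = 0.11. bta-miR-6529a therefore did not pass the thresholds used for all miRNAs, which asked for more than a 1.5-fold change at an adjusted p under 0.1. With 157 to 2024 reads per library it was the best counted member. Its variance between SUM libraries was 37.8 times, and between WIN libraries 8.97 times, what counting alone would give.

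Relative to all miRNAs of the same library, bta-miR-6529a was below the lowest WIN value in all 4 SUM libraries. Its share of the summed CPM was 0.0656, 0.0982, 0.0734 and 0.0744% in SUM and 0.117, 0.147, 0.120 and 0.117% in WIN (replicates 1 to 4). The seasons did not overlap on this scale, with 0.0779% ± 0.0141 against 0.125% ± 0.0143 (SD, n = 4). Of all 243 miRNAs with a mean above 10 CPM, 16% were without overlap on this scale. The exact permutation test (two-sided, not adjusted) gave p = 0.029, which is the lowest value possible with 4 libraries per season. This test was planned only for members with a mean at or below 10 CPM, and its use for bta-miR-6529a was added. Leaving out any 1 library gave an exact p of 0.029 to 0.057. After rescaling every library to the same summed CPM, limma called bta-miR-6529a lower in SUM, at a log2 fold change of -0.69 (adjusted p = 0.076), as it did 22 of the 243 miRNAs (9.05%) on that scale. That rescaling shifted the median over all tested miRNAs from 0.02 to -0.17 on the log2 scale. Relative to that median the difference of bta-miR-6529a was thus nearly the same on both scales, while the call was made on one only. Over the 20 alternatives of the test its log2 fold change ranged from -0.69 to -0.38 and its adjusted p from 0.076 to 0.49.

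The summed level of the high-numbered miRNAs followed bta-miR-6529a. For SUM replicates 1 to 4 it came to 1567, 2296, 1404 and 1630.17 CPM, and for WIN replicates 1 to 4 to 1815, 2188, 1989 and 1934 CPM. The mean of SUM was 1724 ± 393 CPM and that of WIN 1982 ± 156 CPM (SD, n = 4 each), and the seasons overlapped. As a share of the summed CPM of all miRNAs, the members held 0.144 to 0.188% in SUM and 0.200 to 0.236% in WIN, without overlap. Without bta-miR-6529a this share was 0.0694 to 0.0897% in SUM and 0.0824 to 0.0895% in WIN, and the seasons overlapped. The summed level without it was 878 ± 150.2 CPM in SUM and 807 ± 35.5 CPM in WIN. In the same direction, bta-miR-6529a made up 44.99 to 52.2% of the members' CPM in SUM and 57.7 to 62.1% in WIN. No p is given for these sums, since they are scores over a chosen list.

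**Figure D3:**
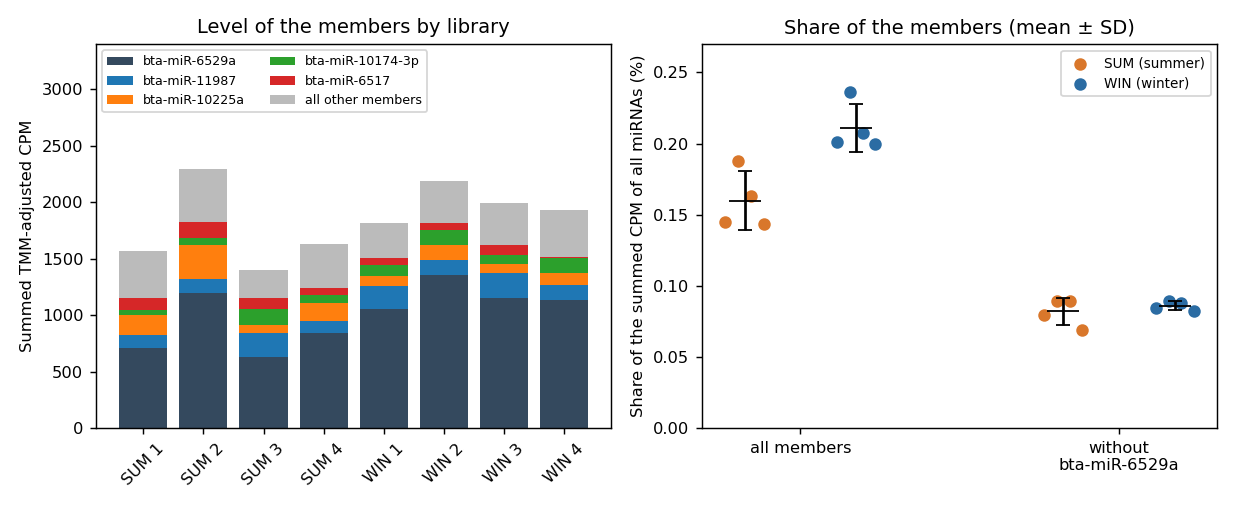
Left, summed CPM (vertical axis) of the high-numbered miRNAs in each library, split into the 5 most abundant members and all others. Right, their share of the summed CPM of all miRNAs (%), with all members and without bta-miR-6529a, as points per library with the mean and SD of 4 libraries; the SUM points lie below the WIN points only with bta-miR-6529a included.

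Of 6 marker lists of tissues, 3 stood apart between the seasons in CPM as deposited, the scale on which bta-miR-6529a overlapped. miR-202, a miRNA of the gonads that checks the follicular origin, was found in all 8 libraries, at 5628 to 11850.5 CPM in SUM and 3086 to 5539 CPM in WIN. The 4 white blood cell miRNAs (miR-142-5p, miR-142-3p, miR-223 and miR-150) summed to 418 to 751 CPM in SUM and 207 to 328 CPM in WIN, and the 3 of muscle (miR-1, miR-133a and miR-206) to 776 to 909 CPM and 1019 to 1451 CPM. Most of the white blood cell sum was miR-142-5p, with means of 527 CPM in SUM and 238 CPM in WIN. Most of the muscle sum was miR-1, with means of 721 CPM in SUM and 1030 CPM in WIN. Neither of these lists nor miR-202 overlapped between seasons. Among all single tested miRNAs 16% were without overlap. Of the single markers in these 3 lists, limma called miR-142-5p (adjusted p = 0.062). It did not call miR-202 (0.11), miR-150 (0.53), miR-1 (0.32) or miR-206 (0.71), and the rest did not reach the filter. The 5 epithelial miRNAs, miR-122 of liver and the 3 red blood cell miRNAs overlapped. All 17 markers had reads, although miR-142-3p was found in 7 libraries, miR-133a in 6 and miR-144 in 4. The part of these sources in the share of bta-miR-6529a was not tested. In such bulk samples, fewer vesicles that carry a miRNA and fewer copies per vesicle cannot be told apart.

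Of the 180 high-numbered miRNAs, 18 had a mean above 10 CPM over the 8 libraries and entered the limma test among 243 miRNAs, and 0 were called higher in SUM and 0 lower. Among all tested miRNAs 7.82% were called, 5.35% as higher and 2.47% as lower in SUM. edgeR and DESeq2 on the recovered reads of the same miRNAs also called none of the 18, against 7.41% and 18.5% of all tested. At an unadjusted p below 0.05, 1 member stood out in limma (bta-miR-10225b), while 22.2% of all tested miRNAs did. In none of the 18 were the SUM and WIN libraries free of overlap, which was seen in 16% of all tested. The log2 fold changes were positive for 9 and negative for 9 members, with a median of -0.0030, and the median of all tested miRNAs was 0.02. The 18 passed only a filter on the mean over both seasons, and the other 162 were too low for this test.

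The members were measured less precisely than the other miRNAs of the test. Their median standard error was 0.62 on the log2 scale, against 0.37 for all tested miRNAs. The 17 members with a mean of 10 to 200 CPM had a median standard error of 0.65, and the 122 other tested miRNAs of that range 0.49. Among those 122, 4 were called. Adjusted p-values of the 18 members ranged from 0.21 to 0.94 (limma). The 95% intervals of all 18 reached past a 1.5-fold change in at least 1 direction, so the absence of calls does not show that their levels were alike in both seasons. Relative to counting error alone, the variance between libraries of the 18 members had a median ratio of 5.16 in SUM and 3.30 in WIN. In SUM 3 and in WIN 3 of the 18 were at or below 1.

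**Figure D4:**
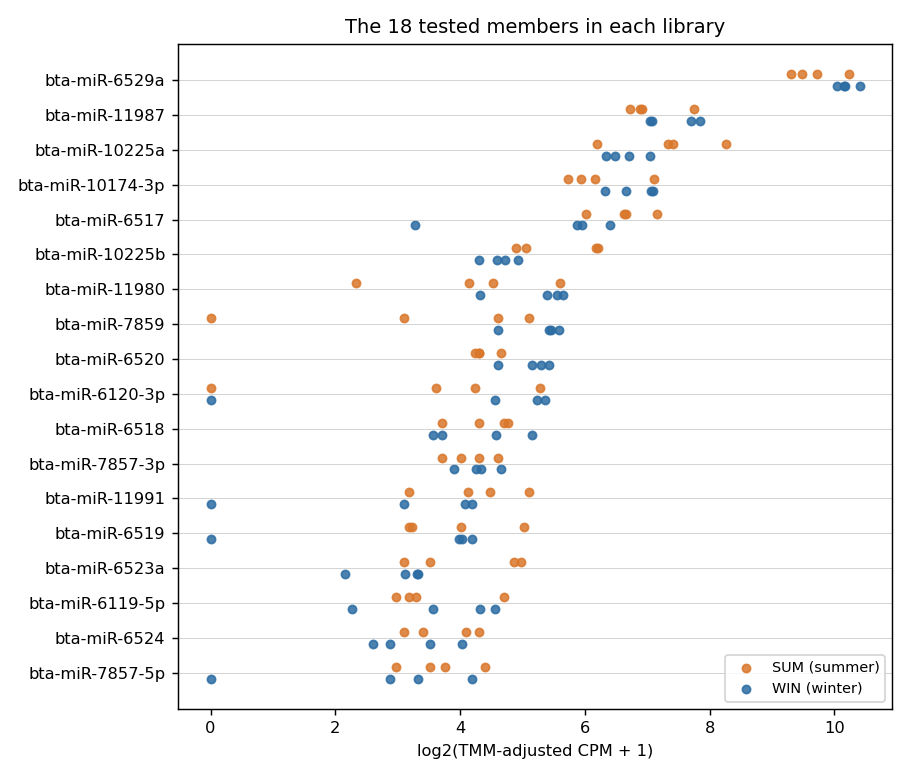
Level of the 18 high-numbered miRNAs with a mean above 10 CPM in each of the 8 libraries, as log2(CPM + 1) on the horizontal axis, with 1 point per library. The seasons overlapped for each of the 18, and points at 0 are libraries without a read.

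bta-miR-11987 was the second member by level. It stood at 119, 117, 213 and 104 CPM in the SUM libraries (replicates 1 to 4) and at 207, 131, 229 and 133 CPM in those of WIN. High and low libraries occurred in both seasons, and SUM replicate 3 and WIN replicates 1 and 3 stood near 200 CPM. The log2 fold change was -0.35, at a limma standard error of 0.32 and an adjusted p of 0.55.

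The letter pair bta-miR-10225a and bta-miR-10225b had positive log2 fold changes in both of its members. In SUM replicates 1 to 4 the level of bta-miR-10225a was 169, 306, 72.4 and 161 CPM, against 88.1, 131, 79.99 and 104 CPM in WIN replicates 1 to 4. SUM replicates 1, 2 and 4 lay above all WIN libraries and SUM replicate 3, the shallowest library, below them. Its log2 fold change was 0.66, with 0.40 as its standard error and an adjusted p of 0.33 by limma. Without SUM replicate 3 it was 1.03 and passed the thresholds (adjusted p = 0.082 from limma). In that fit 23 of the 243 miRNAs (9.47%) were called higher in SUM, against 13 with all libraries. The adjusted p of bta-miR-10225a ranged from 0.082 to 0.67 over the 20 alternatives. The CPM of bta-miR-10225b were 73.2, 71.6, 32.2 and 28.9 for SUM replicates 1 to 4 and 23.0, 25.3, 18.7 and 29.5 for WIN replicates 1 to 4. Only WIN replicate 4 reached the level of the lowest SUM library. Its log2 fold change was 0.95, at a limma standard error of 0.42 and an adjusted p of 0.21, with an adjusted p of 0.13 to 0.53 over the alternatives. The a member had more reads than the b member in all 8 libraries, with a ratio of 2.25 to 5.57 and a ratio of 4 over all reads. The sharing of reads between such near-named entries by the counting was not tested, so that their division is uncertain.

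bta-miR-10174-3p stood at 52.3, 60.6, 137 and 70.3 CPM in the SUM libraries (replicates 1 to 4) and at 99.6, 133, 78.9 and 135 CPM in those of WIN. As for bta-miR-11987, SUM replicate 3 was the highest of its season. The log2 fold change was -0.55, with 0.35 as its standard error and an adjusted p of 0.36 by limma. In SUM replicates 1 to 4 the level of bta-miR-6517 was 98.3, 142, 101 and 64.1 CPM, against 57.4, 60.8, 84.0 and 8.67 CPM in WIN replicates 1 to 4. WIN replicate 4 stood apart with 5 reads, whose exact Poisson interval of 2.81 to 20.2 CPM lay below that of each other library (lowest bound 32.1 CPM). The log2 fold change of bta-miR-6517 was 1.25, at a limma standard error of 0.60 and an adjusted p of 0.25 (0.12 to 0.48 over the alternatives), and without WIN replicate 4 the log2 fold change was 0.54.

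**Figure D5:**
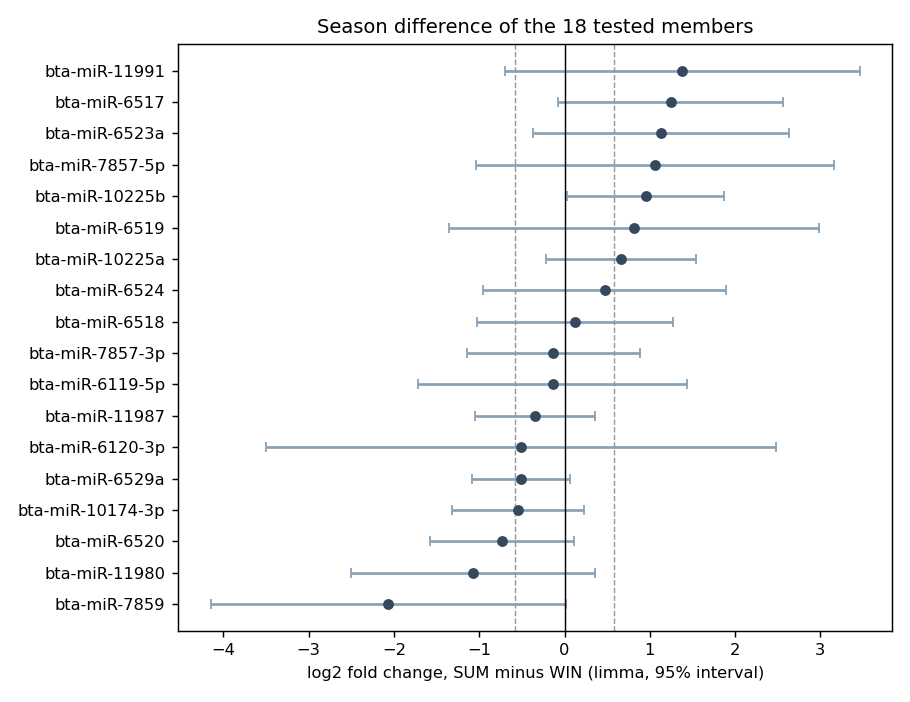
Season difference of the 18 tested high-numbered miRNAs as log2 fold change, SUM minus WIN (horizontal axis), with 95% intervals from limma; dashed lines mark a 1.5-fold change. The values range from -2.07 for bta-miR-7859 to 1.38 for bta-miR-11991 (0.43 without WIN replicate 1), and none of the 18 was called.

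Several members of 10 to 40 CPM were low in single libraries. The CPM of bta-miR-7859 were 33.5, 23.4, 0 and 7.54 for SUM replicates 1 to 4 and 42.1, 43.1, 23.3 and 46.8 for WIN replicates 1 to 4. The zero stands in SUM replicate 3, where 0 reads allow up to 12.1 CPM. Its log2 fold change of -2.07, with 0.95 as its standard error and an adjusted p of 0.23 by limma, was the most negative of the 18, and it was -0.998 without SUM replicate 3 and -0.94 without the 2 shallowest libraries. bta-miR-6520 stood at 18.8, 17.9, 24.1 and 18.8 CPM in the SUM libraries (replicates 1 to 4) and at 34.5, 41.8, 23.3 and 38.1 CPM in those of WIN. Of its WIN libraries, replicate 3 alone fell within the SUM range, and the log2 fold change was -0.74, at a limma standard error of 0.39 and an adjusted p of 0.29. In SUM replicates 1 to 4 the level of bta-miR-11980 was 16.7, 22.04, 4.02 and 47.7 CPM, against 45.9, 49.4, 40.8 and 19.1 CPM in WIN replicates 1 to 4, a log2 fold change of -1.08, with 0.65 as its standard error and an adjusted p of 0.33 by limma. SUM replicate 4 was as high as WIN replicates 1 to 3, and WIN replicate 4 as low as the other SUM libraries. The log2 fold change of bta-miR-11980 was -0.47 without SUM replicate 3, where it had 1 read, and -0.36 without the 2 shallowest libraries.

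bta-miR-6120-3p was at 0 in the 2 shallowest libraries, SUM replicate 3 and WIN replicate 1, and at 11.3 to 39.9 CPM in the other 6. Its log2 fold change of -0.51 had the widest standard error of the 18, 1.36. bta-miR-11991 and bta-miR-7857-5p were also without a read in WIN replicate 1, at log2 fold changes of 1.38 (standard error 0.95) and 1.06 (standard error 0.96). Without that library these were 0.43 and 0.20. In the other libraries bta-miR-11991 ranged from 7.60 to 33.5 CPM and bta-miR-7857-5p from 6.34 to 20.1 CPM. bta-miR-6519 was without a read in WIN replicate 2, although that library held 731675 reads and the other WIN libraries had 14.7 to 17.3 CPM. The CPM of bta-miR-6523a were 10.5, 30.3, 28.2 and 7.54 for SUM replicates 1 to 4 and 7.66, 8.87, 9.08 and 3.47 for WIN replicates 1 to 4, a log2 fold change of 1.13, at a limma standard error of 0.68 and an adjusted p of 0.33. Its partner bta-miR-6523b was at 0 in every library. The other members above 10 CPM were bta-miR-6518, bta-miR-7857-3p, bta-miR-6119-5p and bta-miR-6524. bta-miR-6518 ranged from 12.1 to 26.2 CPM in SUM and from 10.8 to 34.5 CPM in WIN. bta-miR-7857-3p was the most even of them, at 12.1 to 23.4 CPM in SUM and 13.9 to 24.3 CPM in WIN. bta-miR-6119-5p ranged from 6.89 to 25.1 CPM in SUM and from 3.83 to 22.5 CPM in WIN, and bta-miR-6524 from 7.54 to 18.8 CPM and from 5.11 to 15.3 CPM. In each of the 4 the seasons overlapped widely. Their log2 fold changes lay between -0.14 and 0.47, with adjusted p from 0.71 to 0.94 (limma).

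Of 9 high-numbered precursors with both arms listed, 7 had reads from at least 1 arm and 3 from both. A precursor gives a 5p and a 3p product, of which usually one is kept. For bta-miR-10174 the 3p arm had 507 reads and the 5p arm 31, and the 3p arm was higher in all 8 libraries (94.2% of the reads). For bta-miR-6119 the order was the opposite, with 74 reads from the 5p arm and 14 from the 3p arm, and the 5p arm was higher in all 8 libraries. bta-miR-7857 gave reads of both arms, with 103 reads from the 3p and 56 from the 5p arm, and the 3p arm was higher in 7 libraries. For the remaining 4 precursors all reads came from a single arm, with 132 reads of bta-miR-6120-3p, 49 of bta-miR-10182-5p, 12 of bta-miR-10172-3p and 4 of bta-miR-10175-5p.

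Below the filter, 56 detected members remained, while the 18 tested members held 93.8% of the summed mean CPM. bta-miR-11971, bta-miR-7180 and bta-miR-10177-5p stood just under 10 CPM, at means of 9.71, 8.85 and 7.77 CPM. bta-miR-10177-5p stood at 6.28, 16.5, 16.1 and 11.3 CPM in the SUM libraries (replicates 1 to 4) and at 3.83, 1.27, 3.40 and 3.47 CPM in those of WIN. All SUM libraries lay above all WIN libraries, with 3 to 12 reads in SUM and 1 to 6 reads in WIN. The exact permutation test (two-sided, not adjusted) gave p = 0.029, the lowest value possible. Of the 243 miRNAs above the filter 16% were without overlap, and that share was not computed for miRNAs below it. Its season difference did not pass in limma or edgeR over all detected miRNAs (adjusted p = 0.47 and 0.37). In SUM replicates 1 to 4 the level of bta-miR-11986b was 0, 16.5, 4.02 and 33.9 CPM, against 3.83, 0, 1.70 and 0 CPM in WIN replicates 1 to 4, and 39 of its 44 reads came from SUM replicates 2 and 4. The exact permutation test gave p = 0.17. edgeR over all 545 detected miRNAs, of which it called 3.49%, called it higher in SUM (log2 fold change 3.48, adjusted p = 0.091). Without the filter, limma gave an adjusted p of 0.54. bta-miR-11986b was named because its mean passed 10 CPM in SUM only, and this edgeR setting was added after the data were seen. The call is therefore no independent support for a season difference. The means of 15 members were above 10 CPM in both seasons, those of 6 in SUM only and that of bta-miR-11971 in WIN only. The 6 were bta-miR-6523a, bta-miR-11986b, bta-miR-6524, bta-miR-10177-5p, bta-miR-7857-5p and bta-miR-7180. Each such member passed 10 CPM only through the season in which its mean was higher. Over all miRNAs, the paper counted more above 10 CPM in WIN only than in SUM only, and the split of the members was not tested. bta-miR-7180 averaged 10.3 ± 10.1 CPM over the SUM and 7.41 ± 3.38 CPM over the WIN libraries (SD, n = 4 each), with 25.1 CPM in SUM replicate 1 alone. For bta-miR-11971 the averages were 8.29 ± 7.38 CPM (SUM) and 11.1 ± 3.87 CPM (WIN).

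Most of the detected members lay within other genes. Of the 74, 69 matched a miRNA gene of the RefSeq annotation of ARS-UCD2.0, which is another assembly than that of the authors and was used for neighbours only. Of these 69, 53 (76.8%) lay within a protein-coding gene, compared with 53.4% of let-7 and the entries below miR-2284, 71.6% of miR-2284 and miR-2285 and 82.9% of the entries miR-2286 to miR-3999. The table has neither strand nor exons, so that a shared transcript cannot be read from it. bta-miR-6529a lay within GSK3B, the gene of a kinase of Wnt and insulin signaling. The gene of bta-miR-6529b overlapped that of bta-miR-6529a, and bta-miR-6529b was at 0 in every library, while bta-miR-6529a had 6066 reads in all. bta-miR-6523a and bta-miR-6523b likewise overlapped, within EPG5, a gene of autophagy, and only the a member had reads, 67 in all. bta-miR-6517 lay within DNAAF2, a gene of dynein assembly, bta-miR-10225b within DMBT1, a gene of a mucosal scavenger protein, and bta-miR-7859 within PTGR2, a gene of prostaglandin reduction. bta-miR-6520 lay within EP400, of chromatin remodeling, bta-miR-6518 within ADM, which encodes the vasodilator adrenomedullin, bta-miR-6119 within RPL39, of the ribosome, and bta-miR-6524 within PDCD4, which encodes an inhibitor of translation. bta-miR-11980 lay within BRAT1, bta-miR-11991 within OSBPL9 and bta-miR-6120 within CSNK1G2, the gene of a casein kinase. bta-miR-11987 lay within no other gene, and ADGRB3 was the nearest protein-coding one. None of the 69 overlapped an annotated transfer, ribosomal, small nuclear or small nucleolar RNA gene in that table. The same held for all 534 matched miRNAs of every number class, so this does not set the members apart. bta-miR-10225a, bta-miR-10174-3p and its 5p arm, bta-miR-6533 and bta-miR-6775 did not match.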

How the data were processed

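Small-RNA libraries of FF-EVs were sequenced from 4 SUM and 4 WIN pools. In CLC Genomics Workbench 21, trimmed reads were assigned by the authors to bovine entries of miRBase release 22 and genome build ARS-UCD1.2. The deposited signal is the CPM of each mature miRNA after TMM adjustment. The submitters' processing notes also name bcl2fastq, Bowtie2 2.2.2 and DESeq2. Dividing each library by its smallest value above 0 gave whole reads for 100% of the values (tolerance 0.001).

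For the season comparison, limma 3.58.1 (R 4.3.3, eBayes, trended variance, no block) was fitted to log2(CPM + 1). It held 243 miRNAs whose mean exceeded 10 CPM, and Benjamini-Hochberg adjustment ran over all of them. A call asked for more than a 1.5-fold change at an adjusted p under 0.1. The fit was also run on simulated counts without shared cows or TMM adjustment, and no result here rests on that run. For a single value, the 2-sided exact permutation test enumerated 35 distinct regroupings. Expected numbers at equal depth are hypergeometric expectations. Intervals for reads are exact Poisson intervals (95%) and cover counting error only. The p-values measure the spread between pools, some of which may be technical. Each season was sampled at a single time, so season and collection session cannot be told apart. The spread between sessions of the same season is not measured. Both seasons drew on the same herd, yet the main fit and the exact test treat all pools as independent. Which pools share cows is not given, so the effect of this on the p-values is unknown. Alternatives were other pseudocounts, filters and scalings, limma without trend, edgeR 4.0.16, DESeq2 1.42.0, a stricter call, a block for the replicate number, and the omission of libraries. edgeR without a filter was added after the data were seen. The exact test was planned only for members below the filter, and that of bta-miR-6529a was added. Python 3.11.15, scipy 1.17.1 and matplotlib 3.10.9 were used for the rest.

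The members and lists were chosen with earlier results of these data known. Named were all members above 10 CPM, the 3 next below, members with both arms detected and members above 10 CPM in 1 season only. A few others (absent partners, single arms, unmatched names) were added with their values in view. The deposited values carry no sequence, and none is given.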

Additional observations from a re-analysis of the deposited data

Results flagged for a closer look

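In 62 groups of 4 values (24 miRNAs and 7 library measures in each season), 5 had a library far from the other 3 by Dixon's test, and chance alone picks out about 1 in 20 groups. bta-miR-11987 had 213 CPM in SUM replicate 3 (53 reads) and 104 to 119 CPM in the other SUM libraries. bta-miR-6520 had 24.1 CPM in the same library (6 reads) against 17.9 to 18.8 CPM. bta-miR-6519 had 0 CPM in WIN replicate 2 against 14.7 to 17.3 CPM. bta-miR-6119-5p had 25.1 CPM in SUM replicate 1 (12 reads) against 6.89 to 8.79 CPM. bta-miR-10177-5p had 1.27 CPM in WIN replicate 2 (1 read) against 3.40 to 3.83 CPM.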

How the results depend on the processing

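Of the 18 tested high-numbered miRNAs, 12 kept their sign under all 20 alternatives of the test and 2 were called under any, namely bta-miR-6529a (1 lower after rescaling to equal summed CPM) and bta-miR-10225a (1 higher without SUM replicate 3). With edgeR without the filter 1 member below it, bta-miR-11986b, was higher. On the log2 scale the sign changed on leaving out 1 library for bta-miR-6120-3p (-1.77 to 0.59, positive without SUM replicate 3 and without WIN replicate 4), bta-miR-6518 (-0.11 to 0.42), bta-miR-7857-3p (-0.28 to 0.0206, positive without SUM replicate 3), bta-miR-6519 (-0.21 to 1.19, negative without WIN replicate 2) and bta-miR-6119-5p (-0.61 to 0.15). It also changed for bta-miR-6518 after rescaling (-0.0537) and, without the 2 shallowest libraries, for bta-miR-7857-3p (0.0354) and bta-miR-7857-5p (-0.0483). In mean CPM, the difference of bta-miR-7180 ranged from -2.05 to 5.48, negative without SUM replicate 1, and that of bta-miR-6119-3p from -1.34 to 0.47. For bta-miR-10177-5p the exact p was 0.057 without any 1 WIN library. For bta-miR-11986b the exact p was 0.17 with all libraries. Without SUM replicate 1, which had 0 reads of bta-miR-11986b, it was 0.029, the lowest value possible there.

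Over all miRNAs, 13 were higher and 6 lower in SUM. The counts were 6 and 2 with a filter at 1 CPM and with none, 11 and 22 after rescaling, 23 and 22 with DESeq2, 23 and 10 without the 2 shallowest libraries, 1 and 0 at an adjusted p below 0.05, and 0 to 23 and 0 to 7 on leaving out 1 library. With the replicate block they were 15 and 10, and no member was called. Whether pools of equal replicate number share cows is not given. Deviations from the season means correlated by -0.02, 0.30, 0.06 and 0.24 in the 4 pairs of equal number. In pairs 2 and 4 only, each sample correlated best with its own number. These correlations cannot decide whether the samples are paired. Without bta-miR-6529a the summed CPM of the members was 878 in SUM and 807 in WIN and their share 0.0820 and 0.0860%. On leaving out 1 library the summed CPM was 1534 to 1831 in SUM and 1913 to 2037 in WIN, the share 0.151 to 0.165% and 0.203 to 0.215%, and the number detected 38.0 to 45.3 and 35 to 46.7. With at least 3 reads 25.8 members were found in SUM and 31 in WIN, and above 10 CPM 17.2 in SUM and 16.8 in WIN. The cause of these changes was not tested.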
